A study of Mus musculus with 9 samples.

Results

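The dual-specificity MAP kinase phosphatases are the enzymes that switch MAP kinases off, and 8 of their genes were followed here in the mouse striatum: Dusp1, Dusp3, Dusp4, Dusp5, Dusp6, Dusp7, Dusp14 and Dusp16. A probe set, a group of short oligonucleotides summarised into 1 signal, was taken for a gene when that gene's symbol was the single one in its annotation. This found 9 probe sets for 6 of the 8 genes, among 12393 genes with such a probe set, and all 6 genes passed the filter on dim signals. The annotation that matched the table belongs to a smaller array design than the one the submitters' text names, and the gene counts are those of this annotation. Dusp4 and Dusp5 were not analysed here. The genes were chosen by their family membership and with earlier values of these arrays known, the log2 fold changes in MPTP against control, in which Dusp1, Dusp6 and Dusp14 had low signals. For this reason MPTP against control is given below as a description and not as a test. METH against control uses the same control mice, so it is not independent of that choice.

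Striatal RNA came from 9 male C57BL/6J mice aged 56 days, with 1 single-colour Affymetrix array per mouse. Control mice were injected with saline, METH mice with methamphetamine, a psychostimulant that releases dopamine and injures its terminals at high doses, and MPTP mice with MPTP, whose brain metabolite enters dopamine neurons and poisons them. Each group had 3 mice, described as biological replicates, while the sources used here give neither the dose and number of injections nor the time to dissection. No transgene, deletion or Cre driver is named for any group, and both injections model a loss of striatal dopamine chemically.

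A MAP kinase is active while a threonine and a tyrosine in its activation loop are both phosphorylated, and dual-specificity phosphatases remove both phosphates. Several of these phosphatases are themselves transcribed when the pathway fires, so that they act as negative feedback. In spiny neurons of the striatum the ERK branch is driven by dopamine and glutamate together, and transcripts such as Dusp1 and Dusp6 are read as traces of recent signalling. Dusp1 encodes a nuclear phosphatase, induced within minutes, that acts on p38, JNK and ERK. Dusp6 and Dusp7 encode cytoplasmic phosphatases that prefer ERK, and Dusp16 encodes one that prefers JNK and p38. Dusp3 and Dusp14 encode small atypical members that lack the kinase-docking domain of the others.

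The promoters of Dusp1 and Dusp6 are shown because these were the members whose signals in all MPTP mice lay below those of all control mice. Each is the 250 bases before the RefSeq transcription start, read 5′ to 3′ along the gene, in build GRCm38.p6. The Dusp1 sequence is chr17:26508473-26508722 on the minus strand and the Dusp6 sequence is chr10:99262981-99263230 on the plus strand. Capitals mark the core of the cyclic AMP response element (TGACG or its reverse complement) and the CCAAT box (CCAAT or its reverse complement).
Dusp1: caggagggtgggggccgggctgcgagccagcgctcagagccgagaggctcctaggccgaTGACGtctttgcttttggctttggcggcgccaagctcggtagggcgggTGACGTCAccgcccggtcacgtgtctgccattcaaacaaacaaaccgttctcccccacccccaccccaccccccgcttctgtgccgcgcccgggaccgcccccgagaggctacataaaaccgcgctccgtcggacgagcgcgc
Dusp6: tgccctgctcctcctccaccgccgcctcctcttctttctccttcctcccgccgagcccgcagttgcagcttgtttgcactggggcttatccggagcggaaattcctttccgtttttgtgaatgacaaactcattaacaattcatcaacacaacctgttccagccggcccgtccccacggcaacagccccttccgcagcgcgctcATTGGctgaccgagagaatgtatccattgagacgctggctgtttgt

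The Dusp1 window held 1 full cyclic AMP response element, TGACGTCA, the sequence bound by CREB, at 143 to 136 bases before the start. It held 3 core matches, of which those at 143 to 139 and 140 to 136 bases before the start overlap within the full element, and the other lay at 191 to 187. Searched on both strands, the full element was found in 1.62% of 27025 mouse promoter windows of the same length and the core in 17.9%. The Dusp6 window held no core match and 1 CCAAT box, 46 to 42 bases before the start, a motif present in 34.5% of windows. The windows of the other 4 measured members reach into their own gene as annotated, unlike those of Dusp1 and Dusp6, and are not like for like. There Dusp16 had 1 core match and 1 CCAAT box, Dusp3 and Dusp7 had 1 CCAAT box each and no core match, and Dusp14 had neither. Neither the AP-1 letters TGANTCA nor the TATA box letters TATAAA, present in 6.87% and 13% of all windows, were found in any of the 6. A match is a stretch of letters, and no factor's binding was measured.

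Dusp1, the nuclear and rapidly induced member, had lower signals after both toxins, without passing the test. The deposited signal was 6638, 7504 and 7505 in control 1, 2 and 3. After methamphetamine the values of METH 1, 2 and 3 were 5287, 4928 and 6268. MPTP 1, 2 and 3 gave 5051, 4794 and 4770. Every toxin-treated mouse lay below every control mouse. METH mice lay below all control mice for 7.19% of all genes tested and MPTP mice for 5.14%, and the share for both at once was not counted. METH 3 came closest to the controls. The MPTP mice lay close together, with an SD of 155.7 against 500 in controls and 693.8 after METH. The mean was 7215 ± 500 in control, 5494 ± 693.8 in METH and 4872 ± 155.7 in MPTP mice (SD, n = 3 each).

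In METH against control the log2 fold change of Dusp1 was -0.40 ± 0.11 (SE), a ratio of 0.759, and it did not pass the test across all genes (adjusted p = 0.479 in limma). In MPTP against control it was -0.56 ± 0.11, a ratio of 0.676. These comparisons share their control mice. The difference between the toxins, METH minus MPTP, was 0.17 ± 0.11, and METH 2, at 4928, lay among the MPTP mice. With any 1 array left out, the log2 fold change of Dusp1 ranged from -0.50 to -0.32 in METH and from -0.62 to -0.53 in MPTP against control.

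**Figure D1:**
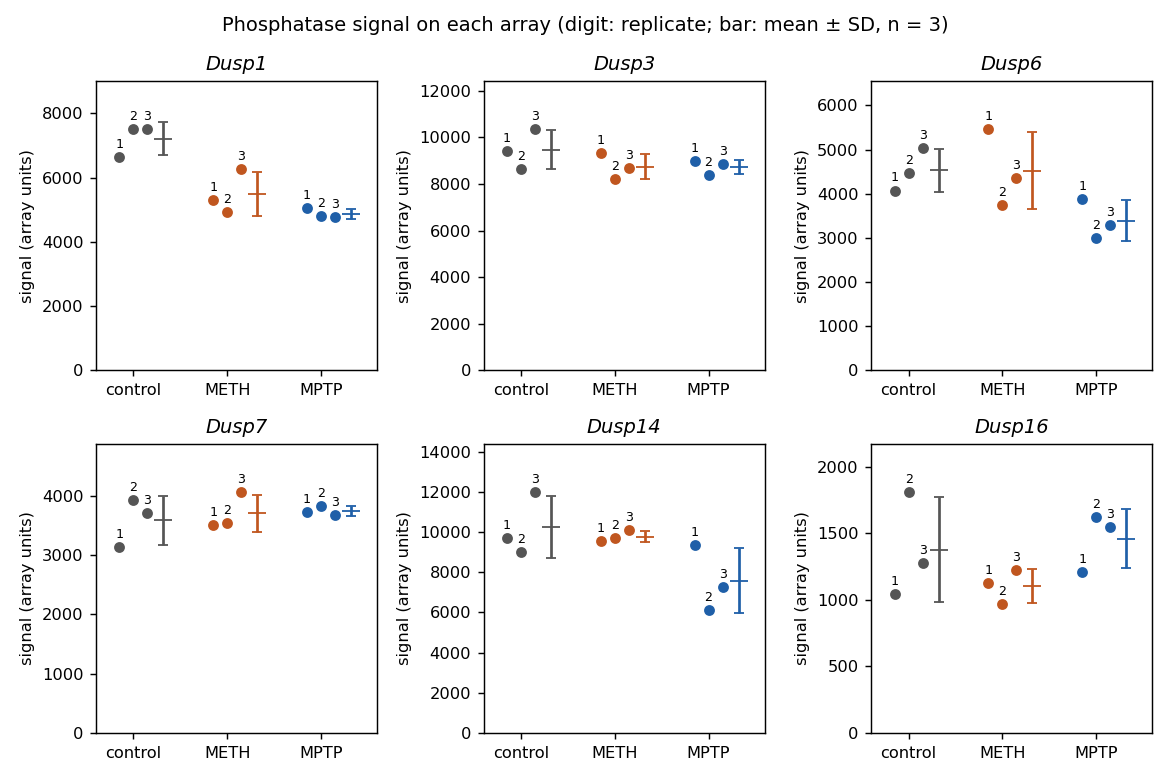
Deposited signal (vertical axis, array units, from 0) of the probe set used for each of the 6 measured phosphatase genes. Points are single mice with the replicate number above, and the bar beside them is the mean ± SD of 3 mice in control, METH and MPTP. For Dusp1 the 6 toxin-treated mice sit between 4770 and 6268, below the control mice at 6638 to 7505, while for Dusp7 the 3 groups overlap.

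Dusp6, the cytoplasmic ERK phosphatase that ERK activity itself induces, had lower signals after MPTP, whereas the METH mice overlapped the controls. Its signal was 4072, 4478 and 5033 in control 1, 2 and 3 and 3887, 2986 and 3300 in MPTP 1, 2 and 3. The groups did not overlap, although MPTP 1 lay only just under control 1. MPTP mice lay below all control mice for 5.14% of all genes tested, and nothing is read from this. In METH 1, 2 and 3 it was 5461, 3743 and 4355. The METH mice thus spread on both sides of the controls, and METH 1 had the highest Dusp6 signal of the 9 arrays.

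The log2 fold change of Dusp6 was -0.42 ± 0.15 in MPTP against control, a ratio of 0.747. In METH against control it was -0.01 ± 0.15 (adjusted p = 0.983 in limma), and it kept this sign in 14 of 18 alternatives, with 0.02 under array weights and 0.11 without METH 2. METH minus MPTP gave 0.41 ± 0.15, and 0.26 without METH 1. This last comparison uses the MPTP mice whose low values of Dusp1, Dusp6 and Dusp14 were already known, so for these genes it is given as a description too.

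Dusp7, the related ERK phosphatase, was measured by 3 probe sets and showed overlapping groups in every one. The brightest gave 3130, 3928 and 3706 in control mice, 3505, 3543 and 4064 in METH mice and 3718, 3830 and 3682 in MPTP mice. Its log2 fold change was 0.05 ± 0.11 in METH (adjusted p = 0.916 in limma) and 0.07 ± 0.11 in MPTP against control. The 95% interval in METH, -0.19 to 0.29, leaves room for a difference of either sign. The other probe sets gave 0.03 ± 0.21 and 0.07 ± 0.15 in METH, and -0.16 ± 0.21 and -0.02 ± 0.15 in MPTP, so the probe sets of Dusp7 disagreed in sign after MPTP. After METH the value of the gene kept its sign in 15 of 18 alternatives. It was -0.01 with arrays centred on their medians and -0.05 without control 1. After MPTP it kept its sign in 16 of 18, with -0.03 without control 1 and -0.04 with the mean of its probe sets.

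Dusp16, the phosphatase that prefers JNK and p38, varied most from mouse to mouse. Its signal was 1040, 1811 and 1277 in control mice, 1126, 970.2 and 1224 in METH mice, and 1205, 1620 and 1550 in MPTP mice. The control mice alone spanned a ratio of 1.74 between highest and lowest and enclosed all MPTP values. The log2 fold change was -0.28 ± 0.20 in METH (adjusted p = 0.714 in limma) and 0.11 ± 0.20 in MPTP against control. A single control decided its size: in METH it was -0.07 without control 2 and -0.47 without control 1, and in MPTP it was 0.33 and -0.07. Its pooled SD within groups, 0.286 log2 units, stood at the 89.2 percentile of genes tested, against 0.122 for Dusp1 and a median of 0.152 over all genes tested.

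Of the small atypical members, Dusp14 had lower signals after MPTP, and the groups overlapped for Dusp3. Dusp14 gave 9719, 9021 and 12001 in control 1, 2 and 3 and 9338, 6126 and 7281 in MPTP 1, 2 and 3. MPTP 1 lay above control 2, so these groups overlapped. In METH mice it was 9535, 9689 and 10090, within the range of the controls and with an SD of 286.8 against 1559 in controls and 1627 in MPTP mice.

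The log2 fold change of Dusp14 was -0.45 ± 0.16 in MPTP against control, a ratio of 0.734, and -0.06 ± 0.16 in METH against control (adjusted p = 0.93 in limma). All 3 METH mice lay above all 3 MPTP mice, at 0.39 ± 0.16, in the comparison that reuses the known MPTP values. Groups did not overlap in that direction for 3.39% of all genes tested, and nothing is read from this. MPTP 2 had the lowest Dusp14 signal, and without it the values were -0.30 in MPTP against control and 0.25 in METH against MPTP.

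The brighter Dusp3 probe set gave 9431, 8650 and 10353 in control mice, 9314, 8234 and 8687 in METH mice and 8970, 8368 and 8853 in MPTP mice. The groups overlapped, with log2 fold changes of -0.11 ± 0.10 in METH (adjusted p = 0.76 in limma) and -0.12 ± 0.10 in MPTP against control. The dimmer Dusp3 probe set gave 0.15 ± 0.18 and -0.02 ± 0.18, so the probe sets differed in sign after METH. Dusp3 had the smallest spread of the 6 members within groups, 0.0959 log2 units.

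**Figure D2:**
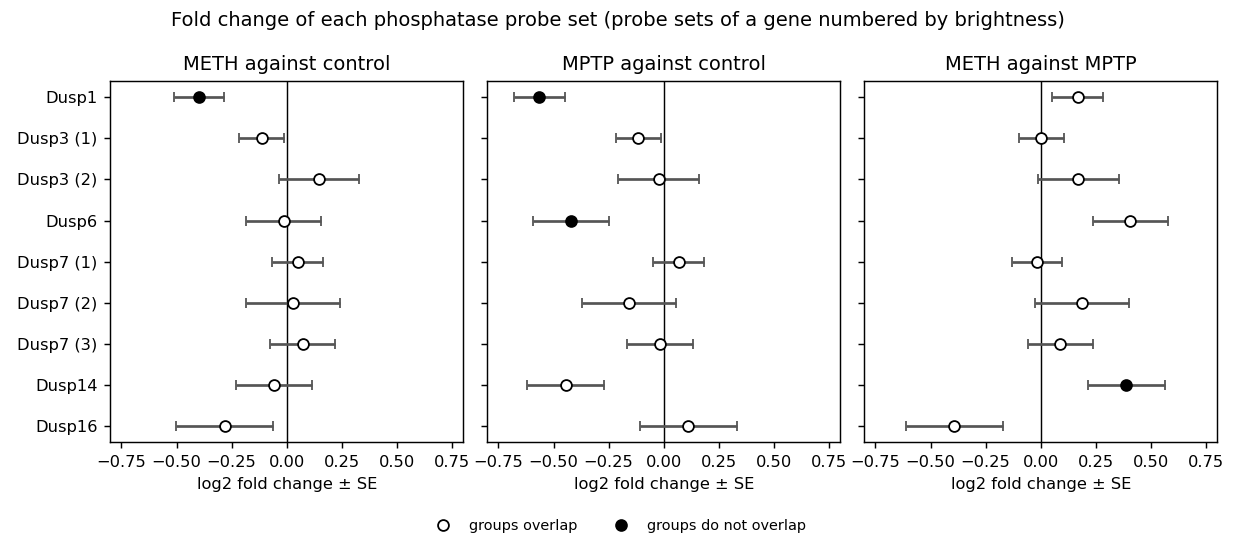
Log2 fold change (horizontal axis) of each of the 9 phosphatase probe sets in 3 comparisons, with bars of 1 SE from a limma fit of all 22626 probe sets other than array controls. Filled points are probe sets whose groups do not overlap. These are Dusp1 in both toxin groups against control, Dusp6 in MPTP against control, and Dusp14 in METH against MPTP. Over all genes tested the shares were 7.19% (METH below control), 5.14% (MPTP below control) and 3.39% (METH above MPTP).

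Counted over the family, 5 of the 6 members were lower in METH than in control mice, beside 49.7% of all genes tested. Among the 5 were Dusp6 at -0.01 and Dusp14 at -0.06. The median log2 fold change was -0.09 beside 0.00 over all genes tested. The test across 7964 genes called 0 of the 6 in limma, beside 0.0126% of all genes. At an unadjusted p under 0.05 there was 1 member, Dusp1, beside 8.25% of all genes. Groups did not overlap, with METH lower, for Dusp1 alone among the 6, beside 7.19% of all genes. In MPTP against control 4 of 6 were lower, beside 48.2% of all genes tested, with a median of -0.27 beside 0.01 over all genes tested. There 0 of 6 passed (0.0126% of all genes), 3 had an unadjusted p under 0.05 (5.49%), and the groups of Dusp1 and Dusp6 did not overlap (5.14% with MPTP lower). These counts come from the comparison that chose the members and nothing is read from them. The METH counts use the same control mice, so they are not independent of that choice and are a description too. In METH against MPTP 0 of 6 passed (0% of all genes), 2 had an unadjusted p under 0.05 (2.85%), and the median was 0.08 beside -0.01, again with the known MPTP values in use.

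The other genes of the MAP kinase pathway were taken from 11 lists, and no gene among them passed the test. Of 150 genes listed, 100 were tested, and 0 were called higher and 0 lower by limma in METH against control, MPTP against control or METH against MPTP. The numbers with an unadjusted p under 0.05 in limma were 8, 2 and 3 of the 100, beside 8.25%, 5.49% and 2.85% of all genes tested. The kinases that the phosphatases act on had medians of -0.07 in METH and 0.03 in MPTP against control over 6 genes tested. Mapk8, which encodes a JNK, had -0.07 ± 0.10 and -0.04 ± 0.10, and Mapk14, which encodes the main p38, had -0.10 ± 0.11 and 0.00 ± 0.11. Map2k1, the kinase that activates ERK, had -0.01 ± 0.12 and 0.04 ± 0.12, and the list of 13 kinases upstream had medians of 0.05 and 0.03.

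Some single genes of these lists lay farther from 0, and 3 of them are named here after their values were seen. Mapkapk5, a kinase activated by MAP kinases, had -0.64 ± 0.16 in METH against control (adjusted p = 0.469 in limma) and -0.09 ± 0.16 in MPTP. For Mapkapk5 all METH mice lay below all control mice, as for 7.19% of all genes tested, and nothing is read from this. Map2k3, which activates p38, had 0.40 ± 0.24 in METH and 0.43 ± 0.24 in MPTP (adjusted p = 0.672 and 0.873 in limma). Map2k6, which also activates p38, had 0.31 ± 0.12 and 0.10 ± 0.12 (adjusted p = 0.543 and 0.95 in limma).

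Phosphatases outside the 8 had values of either sign, and none passed the test in limma. Ptpn5, the striatum-enriched tyrosine phosphatase of ERK, had -0.14 ± 0.11 in METH and -0.13 ± 0.11 in MPTP against control. In METH 6 of 7 genes of its list were lower, beside 49.7% of all genes tested, with a median of -0.14. At an unadjusted p under 0.05 there was 1 gene, beside 8.25% of all genes tested. Dusp8 and Dusp10, which act on JNK and p38, had 0.13 ± 0.26 and 0.21 ± 0.13 in METH and -0.09 ± 0.26 and 0.11 ± 0.13 in MPTP. Of 7 other atypical members tested, 5 were higher in METH and 1 in MPTP, with medians of 0.01 and -0.07. The highest of them, Dusp13, had 0.37 ± 0.16 in METH (adjusted p = 0.558 in limma) and 0.19 ± 0.16 in MPTP, and it was named after its value was seen. Spry2, a feedback inhibitor of ERK signalling like Dusp6, had 0.06 ± 0.15 and -0.14 ± 0.15. All 4 tested genes of that list were lower in MPTP, beside 48.2% of all genes tested, with values from -0.22 to -0.09.

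Genes that neurons switch on with activity were counted beside the phosphatases. Over 23 activity-induced genes other than phosphatases, the median log2 fold change was 0.00 in METH and -0.22 in MPTP against control. Over all genes tested it was 0.00 and 0.01. Of the 23, 12 and 18 were lower, beside 49.7% and 48.2% of all genes tested. The list had 2 and 1 genes at an unadjusted p under 0.05 in these comparisons, beside 8.25% and 5.49% of all genes tested. Fos, the transcription factor gene that marks recent firing, had signals of 4679, 6583 and 6152 in control mice, 5127, 4597 and 5007 in METH mice and 4057, 4145 and 3909 in MPTP mice. All MPTP mice were below all control and METH mice for Fos. MPTP mice lay below all control mice in this way for 5.14% of all genes tested. The log2 fold change of Fos was -0.23 ± 0.13 in METH and -0.51 ± 0.13 in MPTP against control (adjusted p = 0.653 and 0.692 in limma). Arc, whose product works at synapses, had -0.06 ± 0.23 and -0.40 ± 0.23, Egr1 had 0.00 ± 0.14 and -0.18 ± 0.14, and Junb had 0.04 ± 0.18 and 0.09 ± 0.18.

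**Figure D3:**
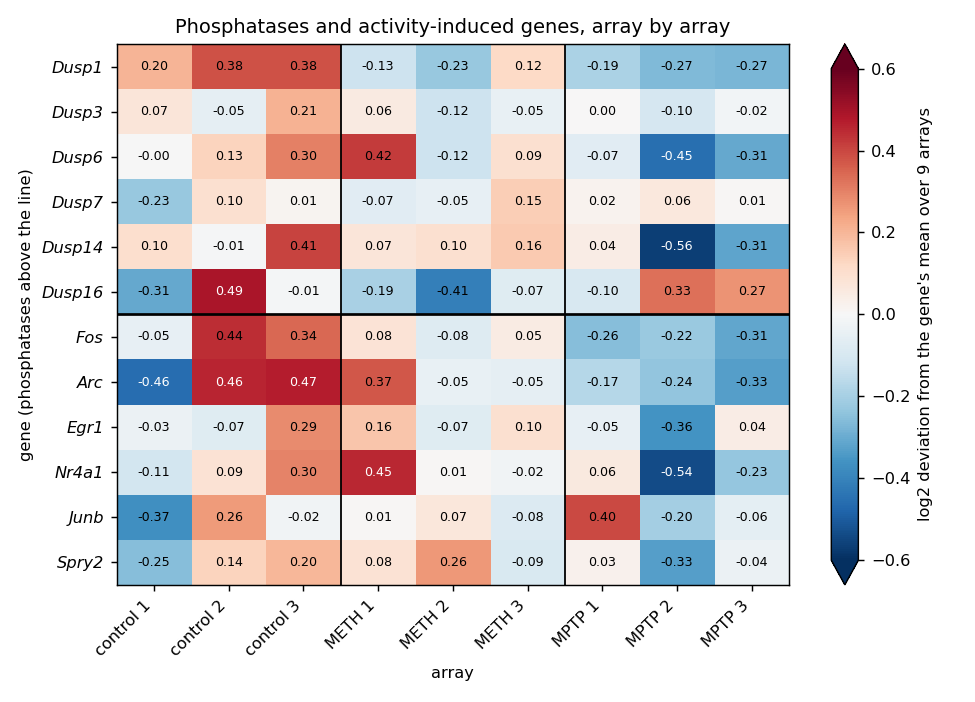
Colour and printed value give the log2 deviation of each gene (rows, the 6 phosphatases above the line and 6 activity-induced or feedback genes below) from its own mean over the 9 arrays (columns). MPTP 2 is low for Dusp6, Dusp14 and Nr4a1, METH 1 is high for Dusp6 and Nr4a1, and Dusp1 is above its mean in all 3 control mice.

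The genes whose log2 signal followed Dusp6 most closely over the 9 arrays, out of 7958 ranked, were Nr4a1 (Pearson r = 0.942), Pam16 (0.931), Zfyve26 (0.894), Eps8 (0.877) and Cdh11 (0.863). Nr4a1, an activity-induced nuclear receptor gene, had a signal of 20612 in METH 1 and 10393 in MPTP 2, the mice that were also highest and lowest for Dusp6. Those closest to Dusp1 were Cnnm2 (0.944), Nup107 (0.94), Ywhaz (0.928), Bcl2l2 (0.919) and Prkag2 (0.901). Nup107, a nuclear pore gene, had -0.76 ± 0.15 in METH (adjusted p = 0.343 in limma) and -0.79 ± 0.15 in MPTP against control. No gene of the activity list was among the 5 closest to Dusp1, and correlations below those 5 are not given here. Fos, of that list, deviated from its mean by 0.44 and 0.34 in control 2 and 3, and by -0.26, -0.22 and -0.31 in MPTP 1, 2 and 3. Dusp1 had 0.38 and 0.38, and -0.19, -0.27 and -0.27, on the same arrays. In control 1 and METH 1 the signs of Fos and Dusp1 differed. The correlations describe the 9 arrays, which share group differences and array-wide features, and were picked as the highest of many.

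Single arrays stood out across the members. Control 3 had the highest signal of the 9 arrays for Dusp3 and Dusp14, and for Dusp1 it was level with control 2 (7505 and 7504). MPTP 2 had the lowest for Dusp6 and Dusp14, and also the lowest mean deviation over the activity-induced genes, -0.26 log2 units. For Dusp1 the lowest arrays were MPTP 3 and MPTP 2, nearly level at 4770 and 4794. The activity-induced genes of MPTP 3 were at 0.01. METH 2 was lowest for Dusp3 and Dusp16.

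Array medians were 1110.5 to 1233, with METH 2 highest, and the trimmed mean was 2500.6 on every array. Spiny neuron markers, which define the tissue, had 7 of 11 listed symbols tested, among them Ppp1r1b, Drd2, Penk and Tac1, and their summed signal was 175160 to 195920 over the control mice, 172070 to 183870 over METH and 155770 to 182510 over MPTP mice. Astrocyte markers (7 of 7 tested) summed to 78662 to 83561 over the control mice, 86277 to 89333 over METH and 85056 to 93508 over MPTP mice. Without Gfap, the astrocyte filament gene, the sums of the other 6 overlapped, at 73642 to 77124, 74280 to 77256 and 73706 to 79912. Gfap itself was 5403, 5020 and 6436 in control mice, 13823, 10957 and 12077 in METH mice and 13596, 11350 and 12025 in MPTP mice. It rose in both, with log2 fold changes of 1.13 ± 0.13 (adjusted p = 0.0404) and 1.14 ± 0.13 (adjusted p = 0.0382 in limma), and was the 1 gene that passed in each. Microglia markers (7 of 8) summed to 38715 to 44534, 46715 to 47894 and 43939 to 48570. Oligodendrocyte markers (7 of 8) summed to 139240 to 157820, 150640 to 159880 and 152490 to 171620, and vessel markers (7 of 7) to 13991 to 14912, 12763 to 13991 and 13291 to 13530.

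Markers of neighbouring tissue were few after the filter. Choroid plexus and ependyma markers (3 of 8 tested) summed to 14220 to 67496 over the control mice, 10514 to 53228 over METH and 5258 to 35933 over MPTP mice. Ttr, the main choroid plexus transcript, was 65370 in control 1 and 2853 in MPTP 2, the array also lowest for Dusp6 and Dusp14. MPTP 3 was next lowest for Ttr, at 7142, and also for Dusp6 and Dusp14, at 3300 and 7281. Ttr was also low in METH 3, at 8555, and in control 3, at 11543, the array highest for Dusp3 and Dusp14. Cortical markers (3 of 9) summed to 11457 to 13336, 9742 to 11725 and 10351 to 12072, and blood markers (3 of 8) to 2300.5 to 3051, 2423 to 3494 and 2703 to 3669. No tested marker was at 0. The part of these markers, of METH 2 and of MPTP 2 in the phosphatase values was not tested, beyond the values without each array. In whole striatum, fewer cells of a type and less RNA per cell cannot be told apart.

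**Figure D4:**
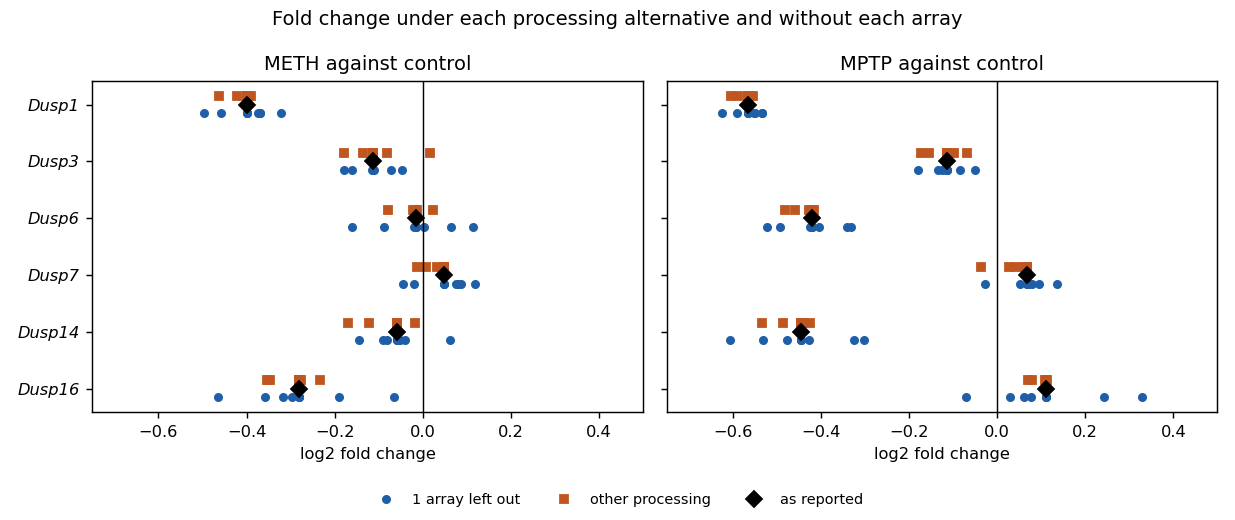
Log2 fold change (horizontal axis) of each measured phosphatase gene against control, as reported (diamond), under other processing (squares) and with each of the 9 arrays left out (circles). Dusp1 stays between -0.62 and -0.32 in both comparisons, while Dusp7 crosses 0 in both, and Dusp3, Dusp6 and Dusp14 cross 0 in METH and Dusp16 in MPTP against control under at least 1 setting.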

How the data were processed

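The deposited table holds 1 intensity per probe set (22690) and array (9), which the authors had scaled to a common trimmed mean of 2500.6. The submitters' processing notes name RMA without a version. The intensity values are linear, unlike usual RMA output, so how probe sets were summarised is unsettled. They were put on the log2 scale without further normalization. Probe sets with a mean under the 40th percentile of all (a signal of 741) were left out, and the brightest probe set stood for its gene, leaving 7964 of 12393 genes. One limma 3.58.1 model in R 4.3.3 (lmFit with a mean per group, eBayes) held all 9 arrays, with 6 residual and 3.93 prior degrees of freedom. P-values were two-sided, with Benjamini-Hochberg adjustment over all genes tested and a threshold of 0.05. Values for further probe sets of a gene come from the same model fitted on 22626 probe sets without the filter. An exact permutation test of 3 against 3 cannot go below 0.1, so none was run. The number of arrays limits the precision.

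The members and lists were chosen with earlier results of these data known. The genes named were the members, a fixed set of pathway and activity genes, and the 5 genes closest to Dusp1 and to Dusp6 by Pearson correlation. Any gene of the 11 lists past the test was to be named, and there was none. Gfap, which passed, was a cell type marker outside those lists. A few others, said so in place, were named after their values were seen. Alternatives were quantile normalization, centring on array medians, other filters, the mean of a gene's probe sets, log2(value + 32), array weights, fits of only the groups compared, a replicate block, and each array left out. The limma procedure was tested on simulated data. Promoters were matched by symbol to RefSeq sequences of build GRCm38.p6 for 6 of 6 measured members.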

Additional observations from a re-analysis of the deposited data

How the results depend on the processing

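In METH against control no member passed the test in limma under any of the 18 alternatives, and 1 had an unadjusted p under 0.05 as reported. Dusp1 kept its negative sign against control in all 18 alternatives for either toxin, and Dusp6 and Dusp14 did so for MPTP. The median over the members in MPTP against control was -0.42 with a filter at the 60th percentile, which leaves out Dusp16, and it ranged from -0.33 to -0.19 with 1 array left out. In METH against control the median ranged from -0.16 to 0.01 with 1 array left out, and the positive value came without control 3. In METH against MPTP it ranged from 0.04 to 0.14 with 1 array left out. Over all genes, Gfap was the 1 gene that passed in each toxin comparison against control. That count was 0 with arrays centred on their medians and with the replicate block for both toxins, and for MPTP also with array weights and with only the 2 groups compared. It was 2 for MPTP without the filter. With 1 array left out it ranged from 0 to 2 in both, and it was 2 without control 3 for MPTP and without METH 2 or MPTP 2 for METH. Replicate numbers are shared between groups. Same-numbered arrays did not deviate together (r from -0.152 to 0.047 over 9 pairs, with 0 of 9 arrays closest to their own number). With 3 arrays per group this cannot show whether the numbers pair the mice, and the main model used no pairing. Centring on array medians shifted the median of all genes to -0.06 in METH and -0.03 in MPTP against control, from 0.00 and 0.01. The 3 arrays per group and the unknown summary of each probe set limit every value.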
